A study of Mus musculus with 28 samples.

Results

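The levels of 10 genes of the protein folding machinery were followed in hippocampal microglia: the inducible HSP70 genes Hspa1a and Hspa1b, the cognate HSP70 gene Hspa8, the co-chaperone genes Dnajb1 and Hsph1, the HSP90 genes Hsp90aa1 and Hsp90ab1, the mitochondrial chaperonin genes Hspd1 and Hspe1, and Hspa5, which encodes the HSP70 of the endoplasmic reticulum (ER). They were taken by symbol as known heat shock proteins and chaperones, and all 10 were among the 48587 genes of the count table. The study asked how gut bacteria act on microglia in the 5xFAD model of Alzheimer's disease, in which human APP and PS1 with familial mutations are expressed under the neuron-specific Thy-1 promoter. Male mice heterozygous for the transgenes and their littermates without them (WT), on a C57BL/6J background and 16 weeks old, were housed specific pathogen free (SPF), germ free (GF), or SPF with vancomycin, cefoxitin, gentamicin and metronidazole in the drinking water for 8 weeks (ABX). Of the 28 mice, 14 were WT (5 SPF, 4 GF, 5 ABX) and 14 were 5xFAD (3 SPF, 5 GF, 6 ABX). Because the GF colony was kept at another facility, germ-free housing cannot be told apart from where a mouse was bred.

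Heat shock proteins bind unfolded or partly folded proteins and keep them from aggregating. When unfolded proteins accumulate in the cytosol, the transcription factor HSF1 binds heat shock elements in the promoters of the inducible genes and raises their transcription within minutes, whereas the cognate forms are made at all times. The ER has its own program, the unfolded protein response, in which ATF6 and XBP1 act through ER stress elements and BiP, the product of Hspa5, is the best known target. In microglia the same genes are also known to respond to handling and to enzymatic or mechanical dissociation of the tissue, together with immediate early genes such as Atf3 and Ier2.

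Both programs are known by binding sites in the promoters of their targets. In the RefSeq windows of GRCm38.p6, 7 of the 10 genes had an entry and the 250 bases before the transcription start were searched. The core of the heat shock element was searched as GAANNTTC and as TTCNNGAA, both of which read the same on the 2 strands, and the ER stress element as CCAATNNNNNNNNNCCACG on both strands. The forms are printed for the genes that the results return to, 5′ to 3′ on the strand of the gene, with the match in capitals. The whole upstream windows are given for Hspa1a (chr17:34972157-34972406, minus strand) and Hspa1b (chr17:34959239-34959488, minus strand), because these 2 genes are near copies, and 30 bases around the match are given for the other genes.
Hspa1a upstream: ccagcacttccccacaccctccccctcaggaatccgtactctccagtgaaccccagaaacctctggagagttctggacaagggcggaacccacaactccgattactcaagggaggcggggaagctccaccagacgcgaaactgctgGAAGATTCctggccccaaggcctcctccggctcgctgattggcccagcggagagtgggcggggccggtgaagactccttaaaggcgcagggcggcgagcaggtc
Hspa1b upstream: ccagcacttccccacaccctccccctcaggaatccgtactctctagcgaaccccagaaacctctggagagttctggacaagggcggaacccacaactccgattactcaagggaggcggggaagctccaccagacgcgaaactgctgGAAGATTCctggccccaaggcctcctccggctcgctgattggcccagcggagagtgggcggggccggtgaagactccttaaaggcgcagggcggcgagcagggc
Hsph1 site: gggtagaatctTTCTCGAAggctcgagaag
Hspe1 site: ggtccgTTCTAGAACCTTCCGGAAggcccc
Hspa5 site: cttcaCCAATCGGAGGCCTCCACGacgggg
The 2 upstream windows of Hspa1a and Hspa1b differed at 3 of 250 bases, none of them in the match, which started 104 bases before the transcription start in both. The Hsph1 site (chr5:149636351-149636380, minus strand) held 1 copy of TTCNNGAA. The Hspe1 site (chr1:55088053-55088082, plus strand) held 3 overlapping matches in 18 bases. Hspd1 runs the other way from nearly the same start, and 1 of its 2 windows holds this site on the other strand. The Hspa5 site (chr2:34772020-34772049, plus strand) held the ER stress element and no core of the heat shock element lay in that window. Neither Dnajb1 window held any of the motifs. Of the 32851 mouse promoter windows, 6.69% held GAANNTTC, 7.17% held TTCNNGAA and 0.113% held the ER stress element.

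Microglia were sorted as viable CD11b+ CD45low cells with a dump gate for lymphocytes and Ly6C+ or Ly6G+ cells, and 1 RNA library was made per mouse. Library totals were 14441610 to 29977395 reads. All 10 microglia markers were present in every group, with a summed level of 48260 to 69400 CPM, reads per 1000000 reads of the library, against 1.04 to 19.4 for 8 neuron markers, 155 to 330 for 6 astrocyte, 154 to 222 for 6 oligodendrocyte and 548 to 808 for 5 B cell markers. Of the 5 B cell markers 2 were at 0 in the GF WT, ABX WT, SPF 5xFAD and GF 5xFAD groups, and 1 in the ABX 5xFAD group. The 7 neutrophil markers summed to 62.4 to 264 in SPF 5xFAD mice and 0.0570 to 144 in ABX 5xFAD mice, highest in FAD_ABX_1151, against at most 2.58 in the other 4 groups. The mouse FAD_GF_201 is 5xFAD by title and genotype and WT by its description, and was used as 5xFAD. The sample descriptions follow 3 numbering styles, 1 for SPF WT and ABX WT mice, 1 for SPF 5xFAD mice and mouse FAD_ABX_1151, and 1 for the remaining 5 ABX 5xFAD mice together with both GF groups. Whether these mark batches is not stated, and the paper says that its experimental mice were processed together. In comparisons of GF with SPF mice, and of GF with ABX WT mice, the numbering style and the housing cannot be told apart.

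The genes differed widely in level. Levels are given below as CPM after TMM scaling, in which a library's total is adjusted for its composition, and as CPM per kb of exon where genes are compared with each other. Over the 28 mice Hspa5 was the highest at 349 ± 53.3 CPM per kb (mean ± SD), followed by Hsp90ab1 at 195 ± 26.4. Hspa8 stood at 43.7 ± 5.99, Dnajb1 at 24.8 ± 5.47 and Hspd1 at 14.4 ± 1.55 CPM per kb. Below these lay Hspe1 at 8.86 ± 2.27, Hsp90aa1 at 6.13 ± 0.958 and Hsph1 at 5.22 ± 1.8 CPM per kb. The inducible pair had the lowest counted levels, with Hspa1b at 0.624 ± 0.673 and Hspa1a at 0.239 ± 0.254 CPM per kb, which leave out any reads that were not assigned between these 2 near copies. Every mouse had more Hspa5 per kb than any mouse had Hsp90ab1, and more Hsp90ab1 than any had Hspa8. The ranges over mice overlapped for Hspa8 and Dnajb1, for Hspd1 and Hspe1, for Hspe1 and Hsp90aa1, for Hsp90aa1 and Hsph1, and for Hspa1b and Hspa1a. Within the HSP90 pair, mean Hsp90ab1 per kb was 28.9 to 38.1 times mean Hsp90aa1 in the 6 groups. Of the 50-base stretches of Hsp90aa1 47.5% also occur in other annotated genes, against 3.44% for Hsp90ab1. The ratio therefore depends on how reads with several matches were treated, as do the levels of Hspd1, Hspa8 and Hspe1 (42.1, 39.4 and 22.8%). Hsp90aa1 encodes the form that heat induces and Hsp90ab1 the form made at all times.

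**Figure D1:**
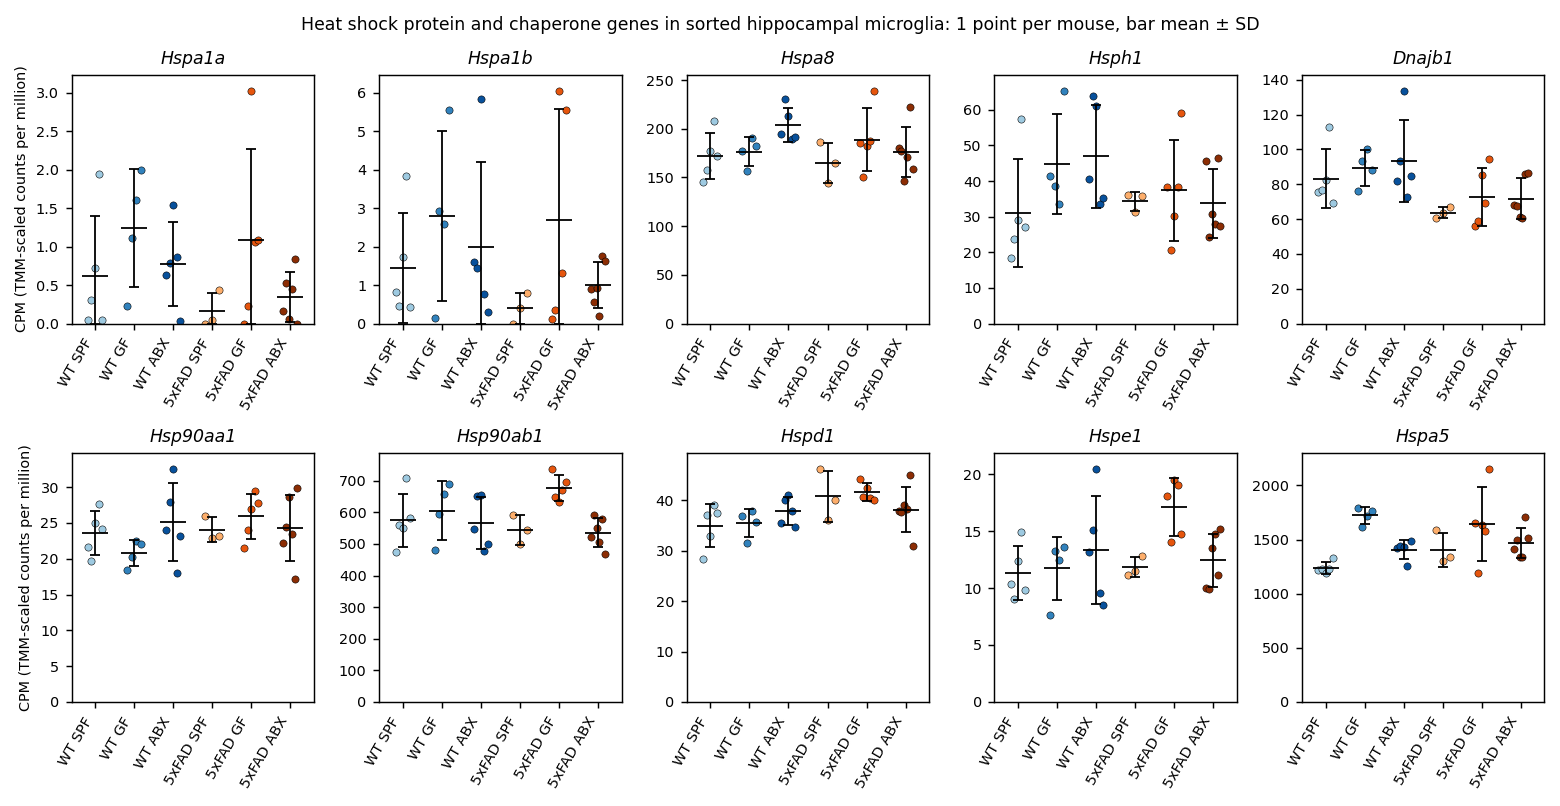
Levels of the 10 genes in TMM-scaled CPM (y axis, from 0) by group (x axis), with 1 point per mouse and the mean ± SD as bars, which are drawn down to 0 at the lowest. Hspa5 in the 4 GF WT mice (1619 to 1792 CPM) lies above the 5 SPF WT mice (1193 to 1334 CPM), and Hsp90ab1 in the 5 GF 5xFAD mice (632 to 737 CPM) lies above the 6 ABX 5xFAD mice (467 to 592 CPM).

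Of the 10 genes, 2 passed the test in 1 comparison each. Hspa5 was higher in GF than in SPF WT mice, and Hsp90ab1 was higher in GF than in ABX 5xFAD mice. Both differences were under 1.5-fold. All 10 genes passed the filter on low counts and were tested with edgeR's quasi-likelihood test together with the other genes, 15298 in all, and adjusted p-values (Benjamini-Hochberg) refer to all of them. In an F test over the 6 groups 1 of the 10 genes passed, Hspa5 with an adjusted p of 0.00517, against 33.2% of all genes tested. Dnajb1 had an adjusted p of 0.0794 in this test and Hsp90ab1 of 0.0898. Fewer cells of a type in the sort and less RNA per cell cannot be told apart in these bulk libraries.

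Hspa5 was the gene that set GF apart from SPF mice in the WT background. The gene lies at chr2:34771970-34777547 on the plus strand of GRCm38. Its product BiP binds nascent proteins in the ER and holds the sensors of the unfolded protein response inactive. The 5 SPF WT mice had 1193, 1219, 1224, 1229 and 1334 CPM. The 4 GF WT mice had 1619, 1720, 1764 and 1792 CPM. Every GF mouse was above every SPF mouse, with a gap between the groups that was wider than either group's range. The difference was 0.48 on the log2 scale (SE 0.102, adjusted p = 0.0156 by edgeR), and an exact two-sided permutation test over the 9 mice gave p = 0.00794, the smallest this number of mice allows. It alone of the 10 genes passed in a comparison that called 1.62% of all genes, and 10.7% of all genes had groups that did not overlap. The 248 calls over all genes became 54 to 159 without any 1 of WT_GF_229, WT_GF_230, WT_GF_231 and the SPF WT mice other than WT_SPF_925, with 54 without WT_GF_229 and 65 without WT_GF_231, and 447 without FAD_ABX_1151 or FAD_ABX_1482. Without mouse WT_GF_231 the adjusted p was 0.0555 with a log2 difference of 0.46, and with FAD_GF_201 taken as WT it was 0.0011 with 0.55.

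The ABX WT mice had 1257, 1418, 1430, 1436 and 1486 CPM of Hspa5, with a mean between those of the other 2 WT groups and the lowest mouse inside the SPF range. All GF WT mice were above all ABX WT mice, but the difference of 0.29 (log2, SE 0.102) had an adjusted p of 0.0788 by edgeR, in a comparison that called 6.88% of all genes and in which 10.9% had groups that did not overlap. DESeq2 gave an adjusted p of 0.0480 and limma with quality weights 0.0314 for the same difference. The GF and ABX WT mice also differ in numbering style, which cannot be told apart from housing there. ABX against SPF WT mice gave a log2 difference of 0.18 (SE 0.0970, adjusted p = 1).

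In 5xFAD mice the Hspa5 levels of the housings were mixed. SPF 5xFAD mice had 1298, 1337 and 1588 CPM, GF 5xFAD mice 1188, 1578, 1638, 1650 and 2151 CPM, and ABX 5xFAD mice a lowest value of 1340, a median of 1454 and a highest of 1705 CPM. The GF 5xFAD group held both the lowest and the highest of all 28 mice, FAD_GF_182 and FAD_GF_201. GF against SPF 5xFAD mice gave a log2 difference of 0.22 (SE 0.113, adjusted p = 0.209). Without FAD_GF_182 Hspa5 passed against SPF and against ABX 5xFAD mice, at 0.31 and 0.25 (log2, adjusted p = 0.0395 and 0.0488), and without FAD_GF_201 it stood at 0.10 and 0.04 (adjusted p = 0.553 and 0.786). The test of whether the GF minus SPF difference was the same in 5xFAD and WT mice gave −0.25 on the log2 scale (SE 0.152, adjusted p = 0.675), so a difference between the genotypes was not shown. The 5xFAD minus WT values of Hspa5 were 0.18 under SPF, −0.07 under GF and 0.06 under ABX conditions (log2), with adjusted p-values of 0.524 to 0.723.

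Other measures moved with the WT comparison. The share of reads on mitochondrial genes was 0.111 to 0.147% in GF WT and 0.162 to 0.285% in SPF WT mice. The 7 markers of border-associated macrophages summed to 10.7 to 43.9 CPM in GF WT and 3.48 to 8.15 CPM in SPF WT mice, where 2 of the 7, Cd163 and Lyve1, were at 0. The mean log2 CPM of 21 immediate early genes was 4.64 to 4.89 in GF WT and 4.21 to 4.72 in SPF WT mice. Their part in the Hspa5 difference was not tested. No 50-base stretch of Hspa5 transcripts occurs in another gene's transcripts of GENCODE M21.

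Of 24 other genes of ER folding and the unfolded protein response, 2 rose in GF against SPF WT mice and none fell, with a median log2 difference of 0.10 against −0.01 over all genes, of which 1.62% passed. Limma called 9 of the 24 as higher and 3 as lower, where it called 1631 of all 15298 genes against 248 by edgeR. The 2 called by edgeR were Pdia6, a disulfide isomerase, at 0.37 (SE 0.0799, adjusted p = 0.0157 by edgeR), and Sdf2l1, a component of the BiP cycle that keeps unfolded proteins from aggregating, at 0.54 (SE 0.130, adjusted p = 0.0287). The other large chaperone of the ER, Hsp90b1, stood at −0.16 (adjusted p = 0.279), Xbp1 at 0.15 (adjusted p = 0.39) and Creld2 at 0.35 (adjusted p = 0.0737). Pdia6, Hsp90b1, Xbp1 and Creld2 were named after their values were seen.

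Sdf2l1, Calr and Sil1 were the genes of this list with the smallest p in the F test over the 6 groups. Sdf2l1 had 136 ± 4.38, 198 ± 23.9 and 140 ± 10.7 CPM in SPF, GF and ABX WT mice (n = 5, 4 and 5) and 227 ± 31.1, 385 ± 68.3 and 238 ± 48.8 CPM in the 5xFAD mice (n = 3, 5 and 6). It rose in 5xFAD mice under all 3 housings, by 0.74 (SPF), 0.96 (GF) and 0.77 (ABX) (log2, adjusted p = 0.000763, 4.41e-06 and 2.76e-05 by edgeR). Calr, the calcium-binding lectin chaperone calreticulin, rose by 0.41 in GF and 0.21 in ABX 5xFAD mice (adjusted p = 4.51e-06 and 0.00487) and stood at 0.14 in SPF mice (adjusted p = 0.284). Sil1, the nucleotide exchange factor of BiP, rose by 0.46 in GF and 0.68 in ABX 5xFAD mice (adjusted p = 0.00382 and 1.42e-05) and stood at 0.33 in SPF mice (adjusted p = 0.127). Hspa5 itself did not pass in any of these 3 comparisons. Other measures also differed between 5xFAD and WT mice. In GF 5xFAD against GF WT mice the mitochondrial share was 0.168 to 0.290% against 0.111 to 0.147%. The astrocyte markers there summed to 155 to 189 against 228.5 to 298 CPM. The microglia markers summed to 48260 to 58530 against 62100 to 65140 CPM. The neutrophil markers summed to 62.4 to 264 CPM in SPF 5xFAD and at most 0.294 CPM in SPF WT mice. Their part in these rises was not tested.

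Hsp90ab1 (chr17:45567775-45573271, minus strand of GRCm38) gave the other call. It encodes HSP90β, the constitutive chaperone that matures kinases and steroid receptors. The 5 GF 5xFAD mice had 632, 648, 671, 697 and 737 CPM. The 6 ABX 5xFAD mice had a lowest value of 467, a median of 537 and a highest of 592 CPM, and the 3 SPF 5xFAD mice had 498, 544 and 591 CPM. All GF 5xFAD mice were above all mice of both other 5xFAD groups, and against SPF 5xFAD mice 19.6% of all genes had groups that did not overlap. GF against ABX 5xFAD mice gave a log2 difference of 0.34 (SE 0.0999, adjusted p = 0.0282 by edgeR), and an exact two-sided permutation test over the 11 mice gave p = 0.00217, the smallest possible. This comparison called 10.6% of all genes, and 2.82% had groups that did not overlap. With only the groups compared in the fit, 251 of 13308 genes were called instead of 1621 of 15298.

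The call on Hsp90ab1 was close to the threshold. Limma with quality weights gave 0.30 (log2, adjusted p = 0.0953) for GF against ABX 5xFAD mice, and the call was also lost with library size alone (0.0961), with gene length offsets (0.0832), with no low count filter (0.0717) and with only the groups compared (0.0661). Leaving out FAD_GF_181, FAD_GF_185, FAD_ABX_1151 or FAD_ABX_1455 gave Hsp90ab1 adjusted p-values of 0.0814, 0.0533, 0.0676 and 0.0514. Without FAD_ABX_1151 only mice of 1 numbering style were compared, and the log2 difference was 0.32. Without FAD_GF_201 the adjusted p was 0.0450. GF against SPF 5xFAD mice gave 0.31 (log2, SE 0.122, adjusted p = 0.0876), and 0.0184 by limma with quality weights. In WT mice the 3 housings overlapped, with 476 to 708 CPM in SPF, 479 to 690 CPM in GF and 479 to 654 CPM in ABX mice. The difference between the genotypes in the GF minus ABX step was 0.24 (log2, SE 0.150, adjusted p = 0.45), so it was not shown that the step is particular to 5xFAD mice.

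Beside this comparison, the mean log2 CPM of the 21 immediate early genes was 5.00 to 5.39 in GF, 4.38 to 5.03 in ABX and 4.47 to 4.61 in SPF 5xFAD mice. Macrophage markers summed to 10.0 to 81.0 CPM in GF and 34.0 to 253 CPM in ABX 5xFAD mice. The neutrophil markers summed to at most 2.58 CPM in GF 5xFAD mice, with 4 of 7 at 0. The 6 astrocyte markers summed to 155 to 189 CPM in GF, with 1 of 6 at 0, below 212 to 302 CPM in ABX and 223 to 239 CPM in SPF 5xFAD mice. The 6 endothelial markers summed to 8.42 to 28.4 CPM in GF, 23.7 to 39.7 CPM in ABX and 29.0 to 40.4 CPM in SPF 5xFAD mice, with 2, 2 and 3 of them at 0. The part of these levels in the Hsp90ab1 difference was not tested, and without FAD_ABX_1151 and FAD_ABX_1482 the log2 difference was 0.28 (adjusted p = 0.100 by edgeR). Over the 28 mice, as deviations from group means, Hsp90ab1 and the immediate early mean had a Pearson r of 0.05 (Spearman 0.00, and 0.00 without the 2 farthest mice).

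GF 5xFAD mice also had the highest mean of the mitochondrial pair, without passing the test. Hspd1 (chr1:55077835-55088243, minus strand) and Hspe1 (chr1:55088132-55091307, plus strand) encode HSP60 and its lid HSP10, which fold proteins in the mitochondrial matrix. Hspe1 stood at 14.0, 14.7, 18.1, 19.1 and 19.5 CPM in GF 5xFAD mice, against 7.61, 12.5, 13.2 and 13.6 CPM in GF WT and 11.2, 11.5 and 12.8 CPM in SPF 5xFAD mice. The GF 5xFAD mice did not overlap with either group, and 14.9% of all genes did not overlap between GF 5xFAD and GF WT mice. The log2 difference was 0.55 against GF WT mice (SE 0.220, adjusted p = 0.0921) and 0.53 against SPF 5xFAD mice (SE 0.241, adjusted p = 0.150), and 0.46 against ABX 5xFAD mice (SE 0.196, adjusted p = 0.130), which overlapped at 9.96 to 15.2 CPM. With gene length offsets the Hspe1 differences from SPF and ABX 5xFAD mice were 0.27 and 0.29 (adjusted p = 0.501 and 0.345). Hspd1 stood at 40.0 to 44.3 CPM in GF 5xFAD and 31.5 to 37.9 CPM in GF WT mice, again without overlap, at a log2 difference of 0.23 (SE 0.111, adjusted p = 0.174), or 0.10 with library size alone. The 2 genes overlap by 112 bases on opposite strands, and in libraries that do not keep the strand the reads there cannot be told apart. Hspe1 tended to be lower in deeper libraries, with a Pearson r of −0.51 between its deviation from the group mean and that of the log2 library total (28 mice, Spearman −0.43, and −0.33 without the 2 farthest mice). Hspa1b and Hsph1 gave −0.45 and −0.44 in the same way (Spearman −0.44 and −0.51, and −0.38 for each without the 2 farthest mice).

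Of the cytosolic HSP70 genes among the 10, none passed by edgeR in any comparison of 2 groups. Hspa8 (chr9:40800984-40805200, plus strand), which folds new proteins and uncoats clathrin vesicles, had group means of 165 to 204 CPM. Its SPF WT mice had 145, 157, 172, 177 and 208 CPM and its ABX WT mice 190, 192, 194, 213 and 230.6 CPM, with a log2 difference of 0.25 (SE 0.115, adjusted p = 1). Hsph1 (chr5:149614287-149636376, minus strand) is HSP110, the nucleotide exchange factor of HSP70. It had 18.4, 23.8, 27.1, 28.9 and 57.3 CPM in SPF WT and 33.6, 35.3, 40.7, 61.1 and 64.0 CPM in ABX WT mice, a log2 difference of 0.59 (SE 0.274, adjusted p = 1), or 0.93 without WT_SPF_928, the mouse at 57.3 CPM (adjusted p = 1). These 2 genes were the ones with an unadjusted p under 0.05 among the 10 in this comparison, in which edgeR called 0% of all genes, 687 genes had an unadjusted p under 0.05, DESeq2 called 2 genes and limma called 0. Only 1.26% of all genes had groups that did not overlap there, and none of the 10 did. Library totals had a median of 16787640 reads in ABX WT and 22741140 reads in SPF WT mice. As deviations from group means, Hsph1 had a Pearson r of −0.44 with the log2 total. The part of depth in the Hsph1 difference was not tested.

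Dnajb1 had a lower mean in 5xFAD than in WT mice under each housing. It lies at chr8:83608193-83612653 on the plus strand. Its product is the HSF1-induced HSP40 that delivers clients to HSP70. SPF 5xFAD mice had 60.9, 63.2 and 66.9 CPM, below all 5 SPF WT mice at 69.2, 75.6, 76.4, 82.4 and 113 CPM. The log2 difference was −0.39 (SE 0.186, adjusted p = 0.338), or −0.25 without WT_SPF_928, in a comparison that called 4.57% of all genes and in which 16.9% had groups that did not overlap. ABX 5xFAD mice had a lowest value of 60.7, a median of 67.9 and a highest of 86.4 CPM, against 72.9, 81.9, 84.8, 93.1 and 134 CPM in ABX WT mice, a log2 difference of −0.38 (SE 0.152, adjusted p = 0.0937). Without WT_ABX_923 the log2 difference of Dnajb1 was −0.46 (adjusted p = 0.0487), and without WT_ABX_911, the mouse at 134 CPM, it was −0.21 (adjusted p = 0.406). In GF mice the difference was −0.30 (SE 0.168, adjusted p = 0.258). The numbering styles differ between 5xFAD and WT mice in SPF and ABX housing and not in GF housing.

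Hspa1a and Hspa1b, the genes that heat and protein damage induce most, had few counted reads. They lie next to each other on the minus strand at chr17:34969190-34972156 and chr17:34956436-34959238. Hspa1a had 0 to 74 reads per mouse, with 3 mice at 0, and Hspa1b 0 to 148 reads, with 1 mouse at 0. The Hspa1b levels were 0, 0.394 and 0.807 CPM in SPF 5xFAD mice, 0.107, 0.363, 1.32, 5.55 and 6.05 CPM in GF 5xFAD mice and 0.206 to 1.75 CPM in ABX 5xFAD mice. WT mice had 0.421 to 3.83 CPM in SPF, 0.134 to 5.54 CPM in GF and 0.297 to 5.83 CPM in ABX housing. All these ranges overlap. The log2 difference of 2.72 between GF and SPF 5xFAD mice had an SE of 1.20 and an adjusted p of 0.138, and ran from 1.35 with limma to 3.69 without FAD_SPF_1148. Of the 50-base stretches of Hspa1a, 58.8% also occur in Hspa1b, so reads from either gene can have been lost or assigned to the other. Of the 2967 exon bases of Hspa1a, 564 are also exon of Gm20481 on the opposite strand, which had 0 reads in every library. In libraries that do not keep the strand such reads cannot be told apart and may have been counted for neither gene, so the low counts are not a measure of how little of either gene was expressed. The sum of both genes had medians of 0.856, 4.11 and 2.23 CPM in SPF, GF and ABX WT mice and of 0.443, 2.38 and 1.09 CPM in SPF, GF and ABX 5xFAD mice, and all 6 groups overlapped. With at least 10 reads required in every library neither gene could be tested.

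Hsp90aa1 (chr12:110690605-110702728, minus strand) had close group means, from 20.8 ± 1.84 CPM in GF WT (n = 4) to 25.9 ± 3.14 CPM in GF 5xFAD mice (n = 5), and the difference between these 2 groups was 0.32 (log2, SE 0.157, adjusted p = 0.186), or 0.19 with library size alone. Of the 50-base stretches of its transcripts 47.5% also occur in other annotated genes, as do 42.1% for Hspd1, 39.4% for Hspa8 and 22.8% for Hspe1, so these counts depend on how reads with several matches were treated. For Hsp90ab1 the share was 3.44%, for Dnajb1 0.412%, and Hsph1 had none.

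By comparison, the 10 genes gave the following counts. Between 5xFAD and WT mice 0 of 10 passed in SPF, 0 in GF and 0 in ABX housing by edgeR, DESeq2 and limma alike, with 1, 2 and 1 at an unadjusted p under 0.05, while 4.57, 15.6 and 14.4% of all genes passed by edgeR. The groups did not overlap for 1, 2 and 0 of the 10, against 16.9, 14.9 and 6.92% of all genes. GF against SPF 5xFAD mice gave 0 of 10 by edgeR and DESeq2 and 1 by limma, with 3 at an unadjusted p under 0.05, against 12.8% of all genes called, and 2 of 10 without overlap against 19.6%. The 1962 calls over all genes there became 547 without FAD_SPF_1148 and 680 without FAD_SPF_1146. ABX against SPF 5xFAD mice gave 0 of 10 by all 3 tools with 0 at an unadjusted p under 0.05, where edgeR called 0% of all genes with 1085 at an unadjusted p under 0.05, DESeq2 8 and limma 134, and 2.39% did not overlap. Without FAD_ABX_1151, which has the numbering style of the SPF 5xFAD mice, edgeR called 59 genes there. All 10 log2 differences were above 0 for GF against SPF and for GF against ABX in 5xFAD mice, with medians of 0.21 and 0.15 against 0.02 and −0.01 over all genes. Scaled by library size alone or with gene length offsets, 9 of 10 were above 0 in each, with Hspd1 below 0 in the first and Dnajb1 below 0 in the second. These 2 comparisons share the GF mice, and the genes are not independent of each other. In WT mice 9 of 10 were above 0 for GF against SPF and 9 for ABX against SPF, with medians of 0.09 and 0.21. For GF against ABX WT mice 4 of 10 were above 0, with a median of −0.06. The medians over all genes in these WT comparisons were −0.005, −0.005 and −0.008.

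Tests of whether the 5xFAD effect differed between housings gave 0 of 10 genes in each. For GF minus SPF edgeR called 0% of all genes with 1304 at an unadjusted p under 0.05, and DESeq2 called 25 and limma 116. For ABX minus SPF edgeR called 0% with 1032, and DESeq2 called 1 and limma 14. For GF minus ABX edgeR called 1.76% of all genes, and Hspe1 came closest among the 10 at 0.65 (log2, SE 0.294, adjusted p = 0.266). At an unadjusted p under 0.05 stood 0, 0 and 1 of the 10, and DESeq2 and limma called none of them.

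**Figure D2:**
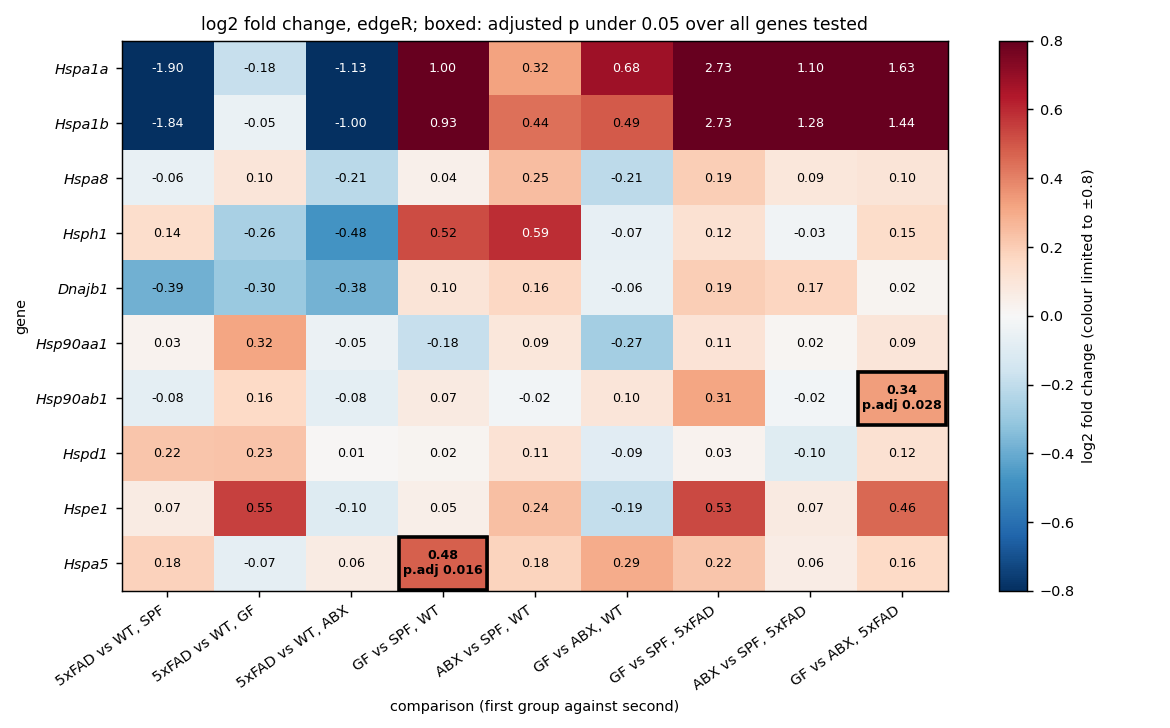
Log2 fold changes of the 10 genes (rows) in the 9 comparisons of 2 groups (columns), as numbers and as colour, which is limited to ±0.8. The 2 boxed cells, Hspa5 in GF against SPF WT mice (0.48) and Hsp90ab1 in GF against ABX 5xFAD mice (0.34), have an adjusted p under 0.05, and the columns share groups.

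Much of the variation of these genes lay between mice of the same group. The SD of log2 CPM within groups was 1.49 for Hspa1a and 1.59 for Hspa1b, whose low counts add to it. Hsph1 followed at 0.47, more than 96% of the 8930 genes with a mean of at least 3 log2 CPM, whose median was 0.23. Hspe1 stood at 0.33 and Dnajb1 at 0.26, and Hsp90aa1 at the median with 0.23. Below it lay Hspa8 at 0.19, Hsp90ab1 at 0.17, Hspa5 at 0.16 and Hspd1 at 0.14. Hspa5 was steadiest in SPF and GF WT mice, with an SD of 0.06 in each, against 0.30 in GF 5xFAD mice.

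Single mice stood high or low for most of the genes at once. WT_SPF_928 had the highest value of its group of 5 for 9 of the 10 genes, all but Hspa5. WT_ABX_911 was the highest of 5 for 7 genes, and FAD_ABX_1460 the highest of 6 for 6 genes. At the other end, WT_ABX_923 was the lowest of its group for 6 genes, and WT_GF_199 for 6 genes while it was the highest for Hspa5. FAD_GF_201 led its group for Hspa8, Hsph1, Dnajb1 and Hspa5. The library of WT_SPF_928 held 22741140 reads, inside the range of its group. So were those of WT_ABX_911, WT_ABX_923 and FAD_ABX_1460. WT_GF_199 had the deepest library of its group (22058726 reads) and FAD_GF_201 the shallowest (20192168 reads). As deviations from group means, Pearson r with the log2 library total ran from −0.51 for Hspe1 to −0.04 for Hspd1. Without the 2 farthest mice r was above 0 for Hspa1a and Hspd1, at 0.01 and 0.09. The part of depth was not tested.

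**Figure D3:**
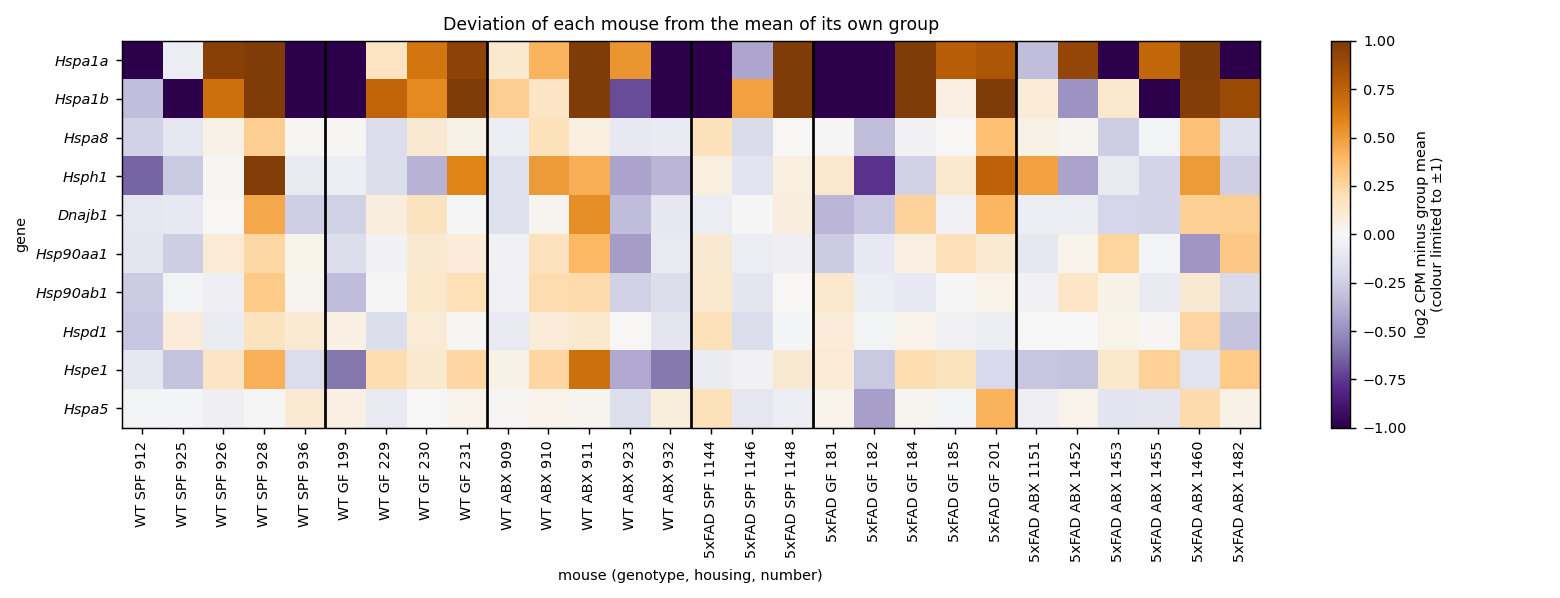
Log2 CPM of each of the 10 genes (rows) in each of the 28 mice (columns) minus the mean of the mouse's own group, as colour limited to ±1, with lines between groups. WT_SPF_928 leads its group in 9 of the 10 rows, and FAD_GF_182 is the lowest of its group for Hsph1 and Hspa5.

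As deviations from group means over the 28 mice, 42 of the 45 pairs of genes had a Pearson correlation above 0, and 16 pairs were above 0.5, with a median of 0.44. The closest pair was Hspa1b and Dnajb1, an HSP70 and its HSP40, at 0.81 (Spearman 0.86, and 0.80 without the 2 farthest mice). Hspa8 and Hsph1 followed at 0.78 (Spearman 0.71, 0.73 without the 2 farthest), Hspa1a and Hspa1b at 0.73 (0.72, 0.65) and Hspa8 and Hspa5 at 0.73 (0.58, 0.59). Hsp90aa1 and Hspe1 gave 0.66 (0.69, 0.67). The 3 pairs below 0 were Hspa1b with Hspd1, Hsp90aa1 with Hspd1 and Hspe1 with Hspa5, at −0.10 to −0.05. Hspd1 and Hspe1, whose products form 1 complex, gave 0.06 (Spearman 0.08, 0.16 without the 2 farthest). All these points share library, depth and scaling, and Hspa1a and Hspa1b share sequence. The same counts were not made over pairs of other genes, so they do not show a trait particular to the chaperones.

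**Figure D4:**
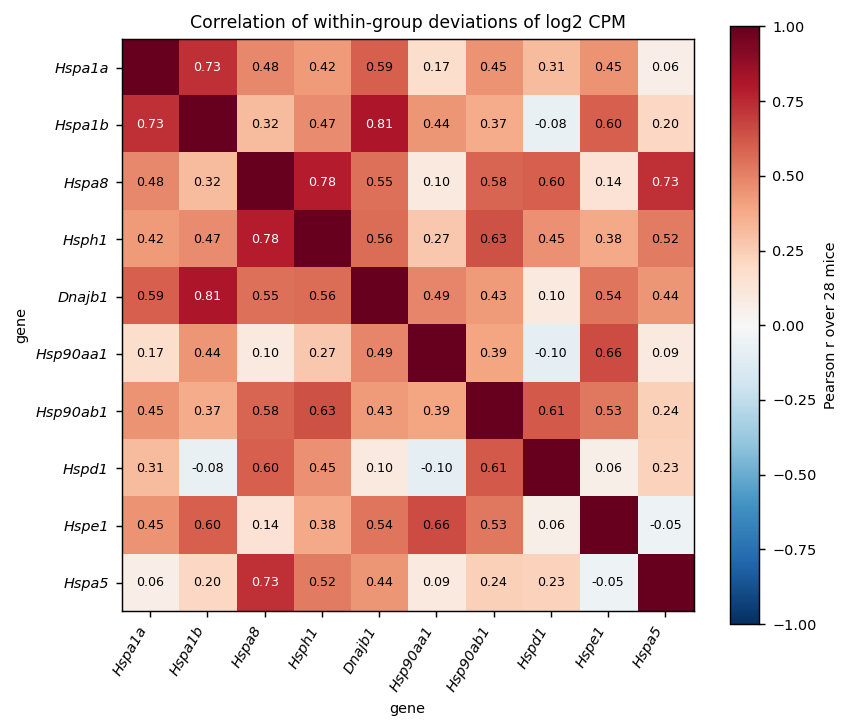
Pearson correlation between each pair of the 10 genes over the 28 mice, computed on log2 CPM minus the group mean, as numbers and colour from −1 to 1. Hspa1b with Dnajb1 (0.81) and Hspa8 with Hsph1 (0.78) are the highest.

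Outside the 10, the 5 genes most like Hspa8 across mice included 2 that work with HSP70. Of 8922 genes with a mean of at least 3 log2 CPM, Stip1, the HOP protein that links HSP70 to HSP90, had the highest correlation with Hspa8 at 0.86 (Spearman 0.81, 0.85 without the 2 farthest mice), and Dnaja1, an HSP40, was the third at 0.78 (0.80, 0.74). BC017643 stood between them at 0.78 (0.66, 0.65), followed by Mat2a at 0.75 and Ctr9 at 0.74. For Hspa5 the 5 most alike genes were Aftph, BC017643, Xbp1, Hdhd2 and Snapc1, at 0.71 to 0.77. Xbp1, the transcription factor of the unfolded protein response, had 0.76, and 0.38 without the 2 farthest mice. For Hspa1a they were Fam46a, Gm43361, Zfp639, Rassf4 and Mtfr1, at 0.67 to 0.71. Between the 10 genes and the immediate early mean r ran from −0.33 for Hspa1b to 0.34 for Hspd1.

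Calls of the F test were also counted in lists of related genes, which differ in length. Of 29 other cytosolic chaperones and co-chaperones tested, of 31 listed, 16 passed the F test over the groups, as did 4 of 14 genes of the TRiC chaperonin and prefoldin, 16 of 24 ER genes, 5 of 10 mitochondrial genes and 14 of 21 immediate early genes tested of 23, against 33.2% of all genes.

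In the cytosolic list the 3 genes with the smallest F test p were Bag1, Hspbp1 and Unc45a, a co-chaperone of HSP70, a nucleotide exchange factor of HSP70 and a co-chaperone of HSP90. Bag1 had 93.5 ± 8.59, 117 ± 19.2 and 96.1 ± 7.74 CPM in SPF, GF and ABX WT mice and 145 ± 28.2, 255 ± 46.1 and 162 ± 24.2 CPM in 5xFAD mice (n = 5, 4, 5, 3, 5 and 6). It rose in 5xFAD mice by 0.64, 1.12 and 0.75 in SPF, GF and ABX housing (log2, adjusted p = 0.00537, 5.42e-07 and 6.39e-05 by edgeR). The marker sums and mitochondrial shares given beside Sdf2l1 differed in the same comparisons. The mean log2 CPM of the immediate early genes was 5.00 to 5.39 in GF 5xFAD and 4.64 to 4.89 in GF WT mice. The endothelial markers summed to 8.42 to 28.4 against 33.85 to 40.8 CPM there. The part of these measures in the Bag1 rise was not tested. Hspbp1 rose in GF against SPF mice by 0.73 in WT and 0.73 in 5xFAD mice (adjusted p = 0.0182 and 0.00884). Unc45a had 19.6 ± 1.72 CPM in SPF and 32.7 ± 4.73 CPM in GF WT mice, a rise of 0.74 (adjusted p = 0.0164).

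In ABX mice 5 cytosolic genes fell and 4 rose between 5xFAD and WT, with a median of −0.10 over the 29 genes against −0.01 over all genes, of which 14.4% passed, 1445 of the 2207 as higher. Those that fell were Dnaja1 at −0.65, Chordc1 at −0.60, Dnajb4 at −0.59, Dnaja2 at −0.43 and Cacybp at −0.40 (log2, adjusted p = 0.00872, 0.00323, 0.0202, 0.00203 and 0.0375 by edgeR), and they include the HSP40 genes Dnaja1, Dnaja2 and Dnajb4. Those that rose were Fkbp5 at 0.82, Bag1, Hspbp1 at 0.61 and Stub1 at 0.41 (adjusted p = 0.00931, 6.39e-05, 0.00478 and 0.0392). Apart from Bag1 and Hspbp1 these were named after their values were seen. The 7 macrophage markers summed to 34.0 to 253 CPM in ABX 5xFAD and 3.80 to 5.90 CPM in ABX WT mice, where 2 of them were at 0, and the 7 neutrophil markers to 0.0570 to 144 CPM and at most 0.200 CPM, with 1 and 5 at 0. Their part in these changes was not tested. Of the 10 genes, 8 had a log2 difference below 0 in this comparison (10 with library size alone), led by Hspa1a at −1.13 (SE 1.01, adjusted p = 0.518), and none passed.

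In GF against SPF 5xFAD mice 5 of 29 cytosolic, 3 of 14 TRiC and prefoldin, 5 of 24 ER and 2 of 10 mitochondrial genes rose, and 2 ER genes, Dnajc3 at −0.41 and Canx at −0.36, fell (adjusted p = 0.00609 and 0.0435 by edgeR). Of all genes 12.8% passed there, 1066 of the 1962 as higher. The share of reads on mitochondrial genes was 0.168 to 0.290% in GF and 0.283 to 0.425% in SPF 5xFAD mice, and the neutrophil markers summed to at most 2.58 and to 62.4 to 264 CPM. The part of these measures in the changes of these lists was not tested. Cct5 and Cct7, subunits of TRiC, rose by 0.36 and 0.35 (adjusted p = 0.0395 and 0.0206). Pfdn5 of the prefoldin complex rose by 0.80 in GF 5xFAD against GF WT mice (adjusted p = 0.000534). Grpel1, the exchange factor of mitochondrial HSP70, rose by 0.60 in GF against SPF 5xFAD mice (adjusted p = 0.00304). Hscb, a mitochondrial co-chaperone of iron-sulfur cluster assembly, and Trap1, the mitochondrial HSP90, rose by 0.92 and 0.45 in GF 5xFAD against GF WT mice (adjusted p = 0.00292 and 0.0278). The mitochondrial share was 0.168 to 0.290% in GF 5xFAD and 0.111 to 0.147% in GF WT mice. The astrocyte markers summed to 155 to 189 against 228.5 to 298 CPM, and the endothelial markers to 8.42 to 28.4 against 33.85 to 40.8 CPM. The part of these measures in the rises of Pfdn5, Hscb and Trap1 was not tested. Dnajc3 and Canx were named after their values were seen.

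The immediate early list had the largest median of the 5 lists in the same comparison. In GF against SPF 5xFAD mice 8 of 21 genes rose and none fell, against 12.8% of all genes called in either direction, all 21 log2 differences were above 0, and the median was 0.65 against 0.02 over all genes, while the median of the 10 chaperone genes was 0.21. Ier2 and Atf3 rose by 1.06 and 0.91 (adjusted p = 0.0136 and 0.0188 by edgeR). Between 5xFAD and WT mice 1 gene rose and 2 fell in SPF, 4 rose and 0 fell in GF, and 3 rose and 2 fell in ABX housing, against 4.57, 15.6 and 14.4% of all genes called. Limma called 3 as higher and 7 as lower in SPF, 7 and 0 in GF, and 2 and 0 in ABX housing, where it called 2154, 2455 and 2183 of all genes. In SPF mice 6 of the 21 log2 differences were above 0, with a median of −0.29 against −0.03 over all genes. Egr2 rose in 5xFAD mice by 2.32, 2.64 and 1.99 in SPF, GF and ABX housing (adjusted p = 0.000244, 2.04e-05 and 0.000167), and Atf3 by 1.87 and 1.51 in GF and ABX housing (adjusted p = 1.23e-06 and 7.97e-06). The part of dissociation in these levels was not tested, nor that of the mitochondrial share and the neutrophil markers, both of which were lower on average in GF than in SPF 5xFAD mice.

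**Figure D5:**
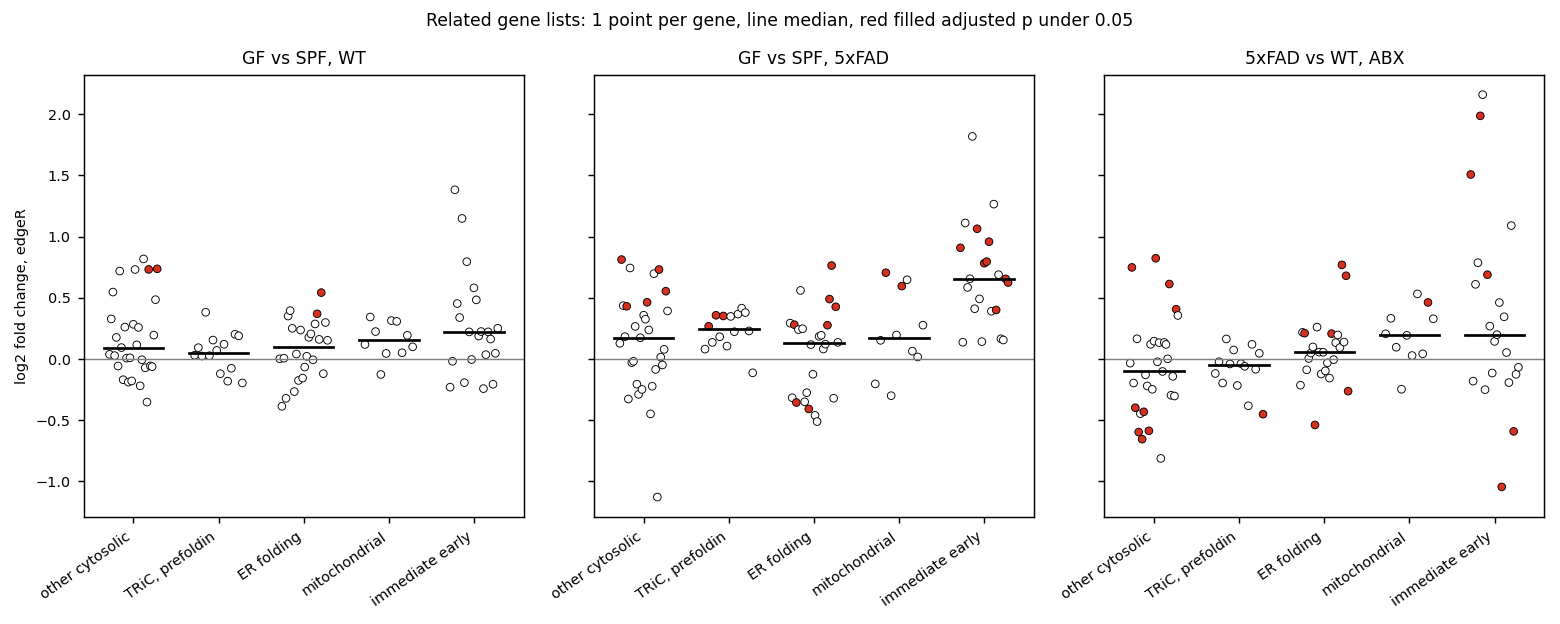
Log2 fold changes (y axis) of the genes of 5 related lists (x axis) in 3 comparisons, with 1 point per gene, red where the adjusted p is under 0.05, and a line at the list's median. In GF against SPF 5xFAD mice all 21 immediate early genes lie above 0, and in ABX mice 5 cytosolic genes fell and 4 rose between 5xFAD and WT.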

How the data were processed

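RNA of 28 sorted microglia samples was sequenced by the authors as single reads of 50 bases, from SMARTer and Nextera XT libraries that do not keep the strand. The deposited values are raw read counts per gene, made by the authors with STAR 2.7.2 and featureCounts 1.6.2 on the mouse genome GRCm38 with GENCODE M21, where the submitters' notes name a human build but the coordinates in the table are of mouse. Exon lengths in the same table were used for values per kb. The 92 spike-in entries, with at most 12 reads in a library, were left out. Genes were kept with filterByExpr (minimum count 10, minimum total 15), scaled by TMM and tested with edgeR 4.0.16 (R 4.3.3) in 1 quasi-likelihood model with a term per group, at an adjusted p threshold of 0.05. Each library was made from 1 mouse, per the study, so p-values measure the spread between mice. Single values were compared with exact permutation tests of log2 CPM (prior count 2). Marker sums refer to the library totals. Alternatives were DESeq2 1.42.0, limma 3.58.1 (voomWithQualityWeights, as the study's methods name), other scalings, filters and samples. On simulated data for GF against SPF WT (14859 genes), edgeR recovered 27% of genes changed by 0.5 and 68.7% of those changed by 1.5 (log2), with 5% false calls, and DESeq2 39% and 77.8% with 16.5% false calls. The numbers in the mouse names are not shared between groups and pair no samples. The least different pair of replicate libraries had a chi-square of 6.90 per degree of freedom. The 10 genes, the gene lists and the tests were chosen with earlier results of these data known. Named beside the 10 genes were the 3 genes per list with the smallest F test p, the 5 most alike genes and the markers, and, apart from Gm20481, which overlaps Hspa1a, any other gene is given in the text as named after its values were seen. Promoter letters are from RefSeq, and Hspa8, Hsp90aa1 and Hsp90ab1 had none.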

Additional observations from a re-analysis of the deposited data

Results flagged for a closer look

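Of 50 groups of values tested (each gene in each group of 4 to 6 mice), 3 held a mouse whose gap to the nearest other mouse took up more of the group's range than Dixon's 95% critical value of 0.71 for 5 mice. Chance flags about 1 in 20 such groups. WT_ABX_911 had 5.83 CPM of Hspa1b, the heat-inducible HSP70, where the next mouse had 1.6 CPM. WT_SPF_928 had 57.3 CPM of Hsph1, the HSP110, where the next had 28.9 CPM, and this mouse also led its group for 8 other genes of the 10. WT_SPF_936 had 1334 CPM of Hspa5, the ER HSP70, where the next had 1229 CPM, and it remained below the lowest GF WT mouse at 1619 CPM. No test of a difference between 2 effects passed for the 10 genes.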

How the results depend on the processing

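The difference of Hspa5 between GF and SPF WT mice kept its call in 37 of 38 alternatives, with log2 values of 0.46 to 0.55, and lost it without WT_GF_231 (adjusted p = 0.0555). The call on Hsp90ab1 in GF against ABX 5xFAD mice held in 28 of 38, with log2 values of 0.25 to 0.37. It was lost, leaving 0 genes, with library size alone, with no low count filter, with limma, with gene length offsets, with only the groups compared and without FAD_ABX_1151 and FAD_ABX_1482. Gains were Dnajb1 in 5xFAD against WT mice under ABX with library size alone (1 gene), Hsp90ab1 in GF against SPF 5xFAD mice with limma (1), and Hspa5 in GF against ABX WT mice with DESeq2, limma, only the groups compared and FAD_GF_201 taken as WT (1 each). The F test called 2 genes with library size alone, DESeq2 or FAD_GF_201 as WT, and 3 with limma. Leaving out each mouse in turn gave 0 to 2 genes in GF against ABX 5xFAD mice, 1 to 2 in the F test, 0 to 1 in GF against SPF WT, GF against ABX WT, GF against SPF 5xFAD and 5xFAD against WT under ABX, and no change elsewhere. No fold change with an unadjusted p under 0.05 changed direction in 531 refits. The cause of these changes was not tested. No paired analysis was possible because the groups share no replicate numbers, and the F test was not run with only the groups compared.

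Limma called 9 instead of 4 genes of TRiC and prefoldin in the F test, and 7868 instead of 5079 of all 15298 genes. In GF against SPF WT mice it called 7 instead of 2 cytosolic and 9 instead of 2 ER genes as higher and 3 instead of 0 ER genes as lower, and in GF against SPF 5xFAD mice 7 instead of 5 cytosolic genes as higher and 3 instead of 0 as lower, 8 instead of 3 TRiC and prefoldin genes as higher, 9 instead of 5 ER genes as higher and 7 instead of 2 as lower, where 4 were lower without FAD_ABX_1151 and FAD_ABX_1482. The correlations of Hspa5 with its 5 most alike genes fell to 0.38 to 0.66 without the 2 farthest mice. With 3 SPF 5xFAD mice and an SE of 0.113 for Hspa5 up to 1.40 for Hspa1a in GF against SPF 5xFAD mice, the size that could be detected differed between the genes. Limma also called 7 instead of 4 cytosolic genes as higher and 3 instead of 0 as lower in GF against ABX WT mice, and 5 instead of 1 ER genes as higher, 2 instead of 0 as lower and 3 instead of 1 immediate early genes as higher and 7 instead of 2 as lower between 5xFAD and WT mice under SPF conditions, 7 instead of 4 as higher under GF and 0 instead of 2 as lower under ABX conditions. Over all genes limma called 2154 instead of 699 between 5xFAD and WT mice under SPF conditions, 3872 instead of 1962 in GF against SPF 5xFAD mice and 2025 instead of 1053 in GF against ABX WT mice. In GF against SPF WT mice DESeq2 called 721 and limma 1631 instead of 248, and in the GF minus ABX test of the 5xFAD effect DESeq2 called 576 instead of 269. With only the groups compared the calls were 1286 instead of 248 in GF against SPF WT mice, 251 instead of 1621 in GF against ABX 5xFAD mice, 1340 instead of 699 and 1321 instead of 2207 between 5xFAD and WT mice under SPF and ABX conditions, and 67 instead of 269 in the GF minus ABX test. Gene length offsets gave 1227 instead of 1962 in GF against SPF 5xFAD mice, DESeq2 1618 instead of 1053 in GF against ABX WT mice, and FAD_GF_201 as WT 716 and 1672 in GF against SPF and against ABX WT mice. Without FAD_ABX_1151 and FAD_ABX_1482 there were 659 in GF against SPF WT mice and 36 instead of 0 in ABX against SPF 5xFAD mice. With library size alone the median log2 difference over all genes in 5xFAD against WT mice under GF conditions moved from −0.03 to −0.15, and fewer calls were higher there (1107 of 3026 instead of 1442 of 2391), under ABX (1160 of 2471 instead of 1445 of 2207), in GF against SPF 5xFAD mice (626 of 1921 instead of 1066 of 1962) and in GF against ABX 5xFAD mice (554 of 1727 instead of 929 of 1621). Leaving out single mice also moved the calls over all genes from 1053 to 446 to 644 in GF against ABX WT mice (without WT_GF_229, WT_GF_230, WT_GF_231, WT_ABX_909, WT_ABX_910 or WT_ABX_911), from 699 to 437 between 5xFAD and WT mice under SPF conditions (without FAD_SPF_1144), and from 1621 to 980, 1072 and 2497 in GF against ABX 5xFAD mice (without FAD_ABX_1151, FAD_GF_181 and FAD_ABX_1482). In the GF minus ABX test of the 5xFAD effect 269 calls became 85 to 175 without any 1 of 12 mice and 491 without FAD_GF_201.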
